A study of Mus musculus with 2 samples.

Results

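The genes described here are the 4 mouse Fc gamma receptors for IgG, Fcgr1, Fcgr2b, Fcgr3 and Fcgr4, and Fcer1g, which encodes the signaling gamma chain that 3 of them need. They were chosen by gene name, with earlier results of these data known, and are 5 of the 32285 genes in the deposited matrices. All 5 had counts in both libraries. Their RNA was followed across cell classes set by marker genes, across states of macrophage-like and monocyte-like cells, and between the 2 libraries.

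MC38, a mouse colon carcinoma line, was grown under the skin of female mice of 6 to 8 weeks, either WT (Lmo7+/+) or KO (Lmo7-/-, lacking the gene in the whole body), and live sorted cells of the tumors were profiled by droplet single-cell RNA-seq. The host genotype differed and the injected tumor line did not. Each genotype is 1 library, and the number of animals behind a library and whether they were pooled are not given in the sources used here. With 1 library per genotype there is no test of the genotype, so every difference below is between these 2 libraries, and each interval covers counting error only.

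Fc gamma receptors bind the constant part of IgG and let a cell respond to antibody-coated targets. Fcgr1, Fcgr3 and Fcgr4 are activating: they signal through the ITAM of the gamma chain, which recruits the kinase Syk and starts phagocytosis and cytokine release. Fcgr2b carries an inhibitory motif that recruits the phosphatase encoded by Inpp5d and opposes them. In tumors, macrophages are the main cells that use these receptors to engulf antibody-coated tumor cells.

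The deposited matrices held 16208 droplets and 98582479 UMIs in the Lmo7+/+ library and 15163 droplets and 80648345 UMIs in the library labelled Lmo7-/-. After filtering, 13542 and 11860 cells were kept, with median UMI counts of 4536 and 4305 per cell. Both libraries shared 279 barcodes, 1.72% and 1.84% of their droplets. All defining markers of each host class reached 5 CPM, counts scaled by the summed counts of a class and library, in that class in both libraries. Of the 16 tumor markers only 6 and 5 did so in the tumor-like class, led by Prdx2. Clusters were named with these same markers and this level among the limits, so these counts do not check the names. In the named host classes together, Lmo7 itself gave 45 counts for Lmo7+/+, 1.63 CPM with a 95% interval of 1.19 to 2.19, and 33 counts in the other, 1.23 CPM with an interval of 0.849 to 1.73. The deleted part of the gene is not given, so this count does not check the genotype, and the library is named by its label.

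Of the 5 genes, 4 lie within 276 kb of chromosome 1 of the GRCm38 build. Fcgr2b spans chr1:170958617-170976547 on the minus strand, Fcgr4 spans chr1:171018920-171029761 on the plus strand, Fcgr3 spans chr1:171051174-171064935 on the minus strand, and Fcer1g spans chr1:171229572-171234365 on the minus strand. Fcgr1 stands apart at chr3:96282909-96293969 on the minus strand. All 5 are protein coding. Fcgr2b and Fcgr3 are close relatives, and their transcripts share 238 words of 30 bases, which are 6.56% of the words of Fcgr2b and 14.6% of those of Fcgr3. None of the shared words lies in the last 500 bases of a transcript, and no other pair of the 5 genes shares any. A 3' library takes most of its reads from those last bases. The methods of the study do not say which end of the transcripts was read, and the effect of the shared words on the counts was not tested. Gm38204 on the opposite strand overlaps Fcgr2b, Mir6546 lies within Fcgr3 and Gm26110 within Fcgr4.

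The promoters of the 4 genes whose values are set against each other below are shown because Fcgr1 and Fcgr4, both known to be raised by interferon gamma, were far apart in how they differed between the libraries. Each is 300 bases from RefSeq on GRCm38.p6, 250 before the annotated start and 50 after it, read 5' to 3' along the gene. The RefSeq starts of Fcgr3 and Fcgr2b lie inside the gene spans given above, and not at their outer ends. Capitals mark matches, on either strand, to 3 motifs: TTCNNNGAA, the gamma-activated site, GAGGAA, the core of the site of the myeloid factor PU.1, and the core of the interferon-stimulated response element, a pair of GAAA words 2 bases apart. Fcgr1 lies at chr3:96293920-96294219, Fcgr4 at chr1:171018676-171018975, Fcgr3 at chr1:171059345-171059644 and Fcgr2b at chr1:170976022-170976321.
Fcgr1: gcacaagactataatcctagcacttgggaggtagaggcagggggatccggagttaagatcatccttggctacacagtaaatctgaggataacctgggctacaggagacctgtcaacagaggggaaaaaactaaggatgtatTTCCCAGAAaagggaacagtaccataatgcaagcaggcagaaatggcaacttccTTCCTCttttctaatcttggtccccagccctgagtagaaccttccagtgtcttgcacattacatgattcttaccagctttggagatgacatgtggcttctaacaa
Fcgr4: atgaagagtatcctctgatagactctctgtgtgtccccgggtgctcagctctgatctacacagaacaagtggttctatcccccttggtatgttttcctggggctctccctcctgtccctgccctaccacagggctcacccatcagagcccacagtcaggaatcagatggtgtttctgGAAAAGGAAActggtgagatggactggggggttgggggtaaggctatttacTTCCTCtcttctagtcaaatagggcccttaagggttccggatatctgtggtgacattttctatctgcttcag
Fcgr3: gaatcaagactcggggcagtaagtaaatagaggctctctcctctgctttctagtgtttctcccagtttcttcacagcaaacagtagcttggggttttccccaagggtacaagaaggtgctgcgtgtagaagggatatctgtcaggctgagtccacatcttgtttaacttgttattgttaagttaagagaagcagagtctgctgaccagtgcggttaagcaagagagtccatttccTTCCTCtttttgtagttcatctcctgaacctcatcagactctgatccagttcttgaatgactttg
Fcgr2b: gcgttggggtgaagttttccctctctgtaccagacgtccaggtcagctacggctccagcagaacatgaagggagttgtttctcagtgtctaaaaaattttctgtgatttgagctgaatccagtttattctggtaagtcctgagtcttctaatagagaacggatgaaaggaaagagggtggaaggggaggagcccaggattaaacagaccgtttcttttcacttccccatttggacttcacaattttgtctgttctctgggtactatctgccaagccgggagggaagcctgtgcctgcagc
The Fcgr1 promoter held a gamma-activated site match at -109 and a PU.1 core at -55, counted from the start. The Fcgr4 promoter held an interferon-stimulated element match at -73 and a PU.1 core at -22. Fcgr3 held only a PU.1 core, and Fcgr2b and Fcer1g held none of the 3 motifs in this window. A second RefSeq start of Fcgr3, whose sequence is not shown, also held only a PU.1 core. Such matches are common: of 32851 mouse promoters of this length, 8.30% held TTCNNNGAA, 28.3% GAGGAA and 3.44% the interferon-stimulated element.

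RNA of the receptors was found mainly in macrophage-like and monocyte-like cells. Macrophage-like cells, led by Ms4a7, Apoe and C1qc, numbered 3136 (Lmo7+/+) and 3502 (labelled Lmo7-/-). They held 19.4% of all UMIs in the kept cells but 60.2% of the Fcgr2b UMIs, 65.3% of those of Fcgr3, 66.3% of those of Fcgr1, 69.8% of those of Fcer1g and 74.4% of those of Fcgr4. Monocyte-like cells, led by Ccr2, Ly6c2 and Chil3, held 7.66% of all UMIs and between 15.04% (Fcgr4) and 28.2% (Fcgr2b) of each gene's UMIs.

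Fcgr1, the high-affinity activating receptor, stood at 277 CPM in the Lmo7+/+ library and 285 CPM in the other in macrophage-like cells, and at 252 and 249 CPM in monocyte-like cells. Dendritic-like cells had 61.2 and 68.5 CPM. These 3 classes did not overlap between libraries, and in every other named class Fcgr1 was at or under 34.1 CPM.

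Among the named classes Fcgr2b, the inhibitory receptor, was highest in monocyte-like cells, at 861 and 1060 CPM, with macrophage-like cells at 678 and 933 CPM. An unnamed cluster led by Folr2 and Cbr2, described at the end, was higher. The monocyte-like and macrophage-like ranges of the 2 libraries overlap, so that the order of these classes was not separated by the spread between libraries. Within each library the monocyte-like level was the higher. When cells were instead gated one by one on class markers, which left 49 monocyte-like cells in each library, the order turned: monocyte-like cells were at 161 and 329 CPM and macrophage-like cells at 600.3 and 859 CPM. Under these gates monocyte-like Fcgr1 was at 23.0 and 35.2 CPM and Fcgr4 at 57.6 and 93.9 CPM. Dendritic-like cells followed at 217 and 201 CPM.

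Fcgr3, the low-affinity activating receptor, was at 565 and 706 CPM in macrophage-like cells and at 538 and 623 CPM in monocyte-like cells, which also overlap. Dendritic-like cells were at 117 and 122 CPM, and at 90.5 and 79.5 CPM without the 26 of them that were led by macrophage markers. Mast or basophil-like cells gave 171 and 125 CPM, from 5 and 7 counts in 28 cells, too few to place in the order.

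Fcgr4, the activating receptor for the mouse IgG2a and IgG2b subclasses, was at 401 CPM in the Lmo7+/+ library and 966 CPM in the library labelled Lmo7-/- in macrophage-like cells. Monocyte-like cells were at 266 and 443 CPM, and dendritic-like cells at 73.4 and 130 CPM. The 26 dendritic-like cells led by macrophage markers held 45 of 102 and 59 of 123 of those counts, and without them the levels were 44.8 and 72.7 CPM. The macrophage-like and monocyte-like ranges overlap only because the libraries lie so far apart: in each library the macrophage-like level was the higher.

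Fcer1g reached 3621 and 4609 CPM in macrophage-like cells and 2682 and 2982 CPM in monocyte-like cells. It then went on where the receptors stopped, with 2169 and 1982 CPM in NK-like cells, 1296 and 1894 CPM in mast or basophil-like cells, 714 and 796 CPM in dendritic-like cells and 322 and 241 CPM in T-like cells. Endothelial-like cells (237 and 160 CPM) and fibroblast-like cells (150 and 272 CPM) overlap in this order, and tumor-like cells were lowest at 36.6 and 35.8 CPM.

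**Figure D1:**
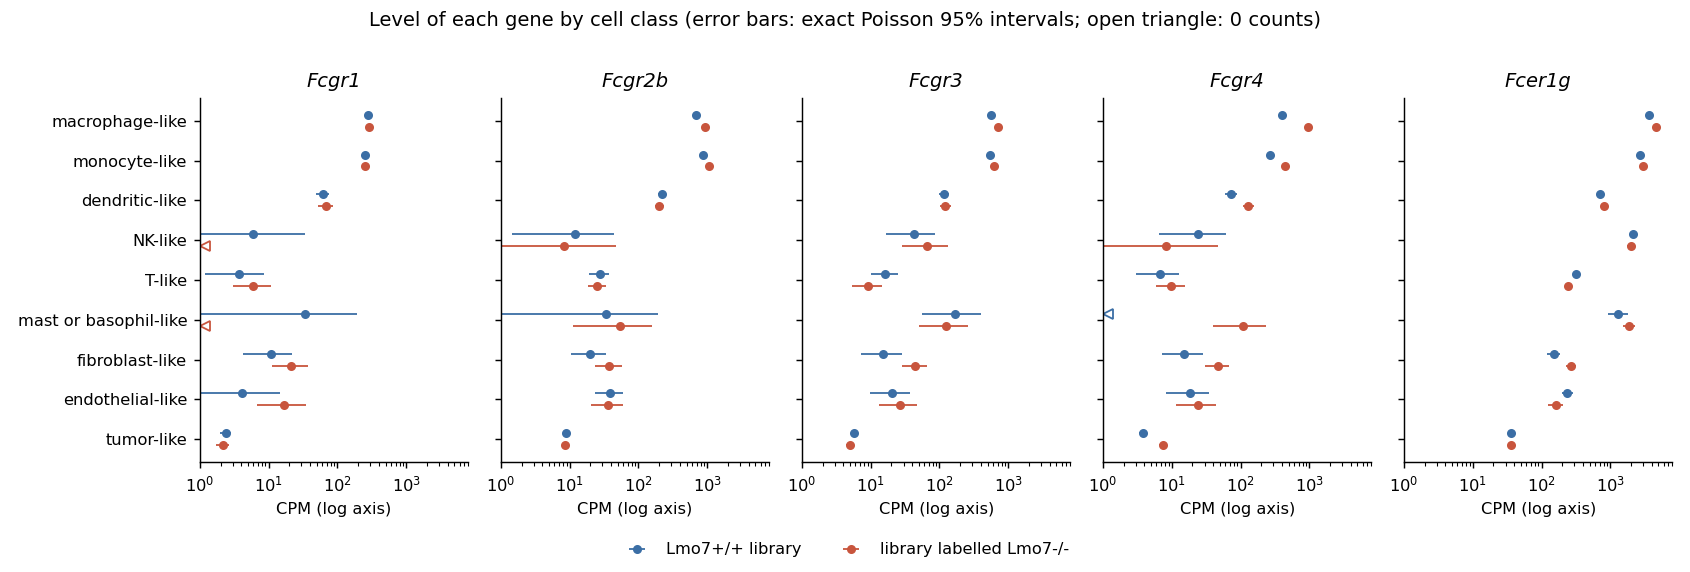
Level of each gene (x axis, CPM on a log axis) in 9 cell classes (y axis) of the Lmo7+/+ library (blue) and the library labelled Lmo7-/- (red), with exact Poisson 95% intervals and open triangles for 0 counts. Fcgr4 in macrophage-like cells lies at 401 and 966 CPM, while Fcgr1 lies at 277 and 285 CPM, and Fcer1g stays near 2000 CPM in NK-like cells where the receptors have few counts.

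Between the libraries, macrophage-like cells differed most in Fcgr4 among the 5 genes. The summed counts of Fcgr4 were 6648 (Lmo7+/+) and 16036 (labelled Lmo7-/-), a ratio of 2.41, or 1.27 on the log2 scale with an interval of 1.23 to 1.31. Fcgr2b differed by 0.46 (0.43 to 0.50), Fcer1g by 0.35 (0.33 to 0.36), Fcgr3 by 0.32 (0.28 to 0.36) and Fcgr1 by 0.04 (-0.02 to 0.10). So the receptors did not move as one family: Fcgr1, activating like Fcgr4, was at the same level in both libraries within counting error by CPM. That does not hold under every scaling: the Fcgr1 interval was 0.11 to 0.22 after TMM, a scaling described below, and 0.01 to 0.13 with a library size that leaves out the 10 most abundant genes.

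At a log2 ratio of 0.5 or more, 1 of the 5 genes was past the fold, and 4.89% of the 11998 genes with at least 20 counts were past it in the same direction. A further 10.8% were past it in the other direction, and the median log2 ratio of all genes was -0.12. Of all genes tested, 99.3% had a lower ratio than Fcgr4, 94.6% than Fcgr2b, 92.1% than Fcer1g, 91.3% than Fcgr3 and 72.6% than Fcgr1. Scaling by TMM, which assumes that most genes do not differ, moves the median of all genes by 0.12 to 0.00. Relative to it, the ratios became 1.39 for Fcgr4, 0.58 for Fcgr2b, 0.47 for Fcer1g, 0.44 for Fcgr3 and 0.17 for Fcgr1, so that Fcgr2b passed the fold as well, beside 7.03% of all genes. Of the genes past the fold in either direction, 31.2% were higher in the library labelled Lmo7-/- by CPM and 50.8% after TMM.

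The genes were also read cell by cell. With every cell thinned to 1500 UMIs, which left out 385 and 435 shallower macrophage-like cells, Fcgr4 was detected in 38.8% of cells of the Lmo7+/+ library (37.0% to 40.7%) and in 64.9% of the other (63.1% to 66.5%). Without thinning the shares were 66.3% and 83.1%, at median depths of 4820 and 4194 UMIs. In tumor-like cells, which should lack the gene and had medians of 5292 and 5290 UMIs, the thinned shares were 1.07% and 1.47%. Macrophage-like cells with 3 or more Fcgr4 UMIs were 4.11% and 20.6%, so that both the share with any RNA and the number of UMIs per cell were higher. Fcgr1 was detected in 32.1% and 32.4% of macrophage-like cells, Fcgr3 in 53.8% and 61.5%, Fcgr2b in 58.8% and 66.6%, and Fcer1g in 98.0% and 99.1%.

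**Figure D2:**
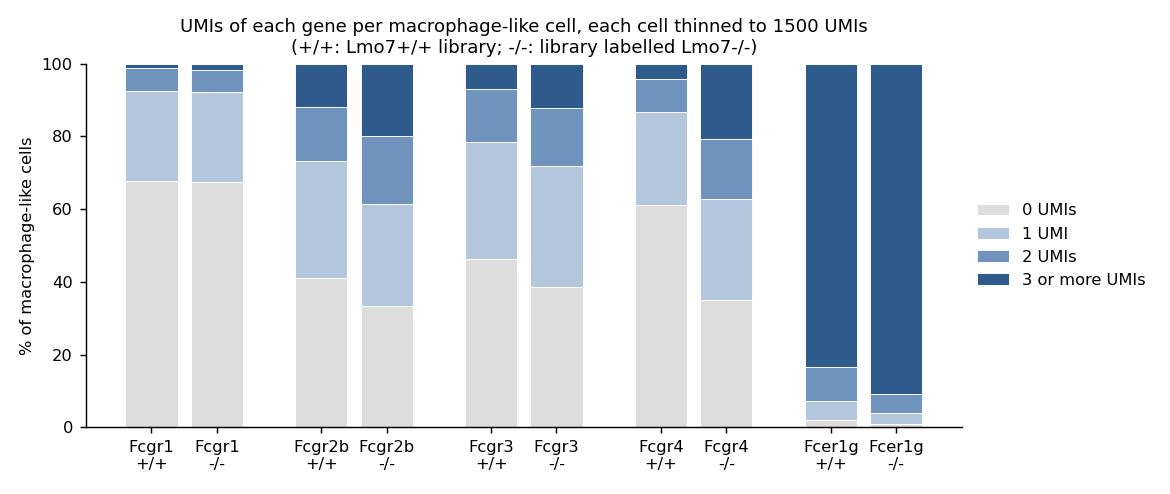
Share of macrophage-like cells (y axis, percent) with 0, 1, 2 or 3 or more UMIs of each gene in the Lmo7+/+ library (+/+) and the library labelled Lmo7-/- (-/-), each cell thinned to 1500 UMIs. The darkest Fcgr4 segment grows from 4.11% to 20.6%, and that of Fcgr1 is 1.27% and 1.76%.

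Most macrophage-like cells carried RNA of more than 1 receptor. At 1500 UMIs per cell, 8.69% of cells in the Lmo7+/+ library and 3.52% in the other had no UMI of any of the 4 receptor genes, while 5.13% and 9.98% had all 4. In the Lmo7+/+ library, Fcgr2b was found in 60.4% of cells with Fcgr4 and in 57.8% of cells without it. In the library labelled Lmo7-/-, it was found in 65.3% of cells with Fcgr4 and in 69.0% of cells without it. Cells with Fcgr4 RNA therefore held the inhibitory receptor about as often as cells without it.

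The balance of activating to inhibitory RNA was taken as the counts of Fcgr1, Fcgr3 and Fcgr4 over those of Fcgr2b, which compares groups of cells and not genes. In macrophage-like cells it was 1.83 (1.79 to 1.88) in the Lmo7+/+ library and 2.098 (2.06 to 2.14) in the other. Of the activating genes only Fcgr4, at a log2 ratio of 1.27, lay above Fcgr2b, at 0.46. Fcgr3 (0.32) and Fcgr1 (0.04) lay below it, so the higher balance came with Fcgr4 and not with the activating genes as a group. The intervals overlap when cells are clustered at resolution 1.0, at 1.76 (1.72 to 1.80) and 1.83 (1.79 to 1.86), and under the marker gates, at 1.91 (1.79 to 2.03) and 2.08 (1.97 to 2.19). In monocyte-like cells it was 1.23 (1.18 to 1.27) and 1.24, with overlapping intervals, so that no difference in the summed ratio was detectable there. Its parts went different ways there too: Fcgr4 (0.74) lay above Fcgr2b (0.30), and Fcgr3 (0.21) and Fcgr1 (-0.02) below it.

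Macrophage-like cells fell into 6 states, clustered without the 5 genes. The state led by Ccl8, Il18bp and Ccl5 held 894 and 1626 cells, the proliferating state led by Ccna2, Nusap1 and Birc5 held 783 and 634, the state led by Fcrl5 and Cd300e held 601 and 509, and the state led by Mmp12, Gpnmb and Arg1 held 299 and 363. A state led by Sparc and Dclk1, which had the highest sum of tumor markers (431 and 480 CPM), held 373 and 246, and a state led by the interferon-induced genes Ifit3, Ifit2 and Rsad2 held 186 and 124.

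Fcgr4 was past the fold in all 6 states. The share of all genes past it in that direction was 5.6% in the Ccl8 state, 5.4% in the proliferating state, 8.06% in the Fcrl5 Cd300e state, 6.66% in the Mmp12 state, 7.88% in the Sparc state and 9.76% in the Ifit3 state. It was farthest apart in the Fcrl5 Cd300e state, at 461 CPM in the Lmo7+/+ library and 1511 CPM in the other, a log2 ratio of 1.71 (1.62 to 1.81). It was least apart in the Mmp12 state, at 348 and 533 CPM, a log2 ratio of 0.62 (0.45 to 0.78). The intervals of these states do not overlap. The highest Fcgr4 log2 ratio of any state was 1.32 when the states were clustered at resolution 0.8 and 1.196 with doublets removed. The other states lay between them, with log2 ratios of 1.05 in the Ccl8 state, 1.08 in the Ifit3 state, 1.14 in the Sparc state and 1.32 in the proliferating state.

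Fcgr1 had log2 ratios between -0.01 and 0.07 in the 6 states, although its level ran from 181 and 188 CPM in the Sparc state to 392 and 402 CPM in the Ifit3 state. Its states differed more than its libraries did. The Mmp12 state was the lowest but one in Fcgr1, at 192 CPM in both libraries, and the highest in Fcgr2b and Fcgr3. Fcgr2b was at 1035 and 1227 CPM there, and Fcgr3 at 828 and 973 CPM. That state also had the lowest activating to inhibitory ratio, 1.32 and 1.38. Its summed genes of dissociation stress, a list described below, were at 9661 and 7186 CPM. They were at 8767 and 10041 CPM in the Ifit3 state and between 2700 and 4041 CPM in the other macrophage-like states. The part of stress in the receptor levels of these states was not tested.

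In the Fcrl5 Cd300e state, Fcgr2b (553 and 563 CPM) and Fcgr3 (510 and 538 CPM) barely differed between the libraries, with log2 ratios of 0.03 and 0.08 and intervals that hold 0. Fcer1g was past the fold there, at 4140 and 6129 CPM, a log2 ratio of 0.57, but no state was past it for Fcer1g at state resolution 0.8, where the highest log2 ratio was 0.35, or with doublets removed, where it was 0.33. The activating to inhibitory ratio in this state was 2.24 (2.11 to 2.38) in the Lmo7+/+ library and 4.14 (3.88 to 4.43) in the other, while in the Ifit3 state it was 2.24 and 2.099, with overlapping intervals. Fcgr2b was past the fold in the Ifit3 state alone among the 6, at 613 and 957 CPM, a log2 ratio of 0.64. At state resolution 0.3 no state was past it for Fcgr2b, and the highest log2 ratio was 0.39.

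The Ccl8 state was 28.5% of macrophage-like cells in the Lmo7+/+ library and 46.4% in the other. With the mix of states held at that of both libraries together, the log2 ratios were 1.21 for Fcgr4, 0.34 for Fcgr2b, 0.34 for Fcer1g, 0.22 for Fcgr3 and 0.03 for Fcgr1. The Fcgr4 difference was therefore nearly as large within states as over the class.

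**Figure D3:**
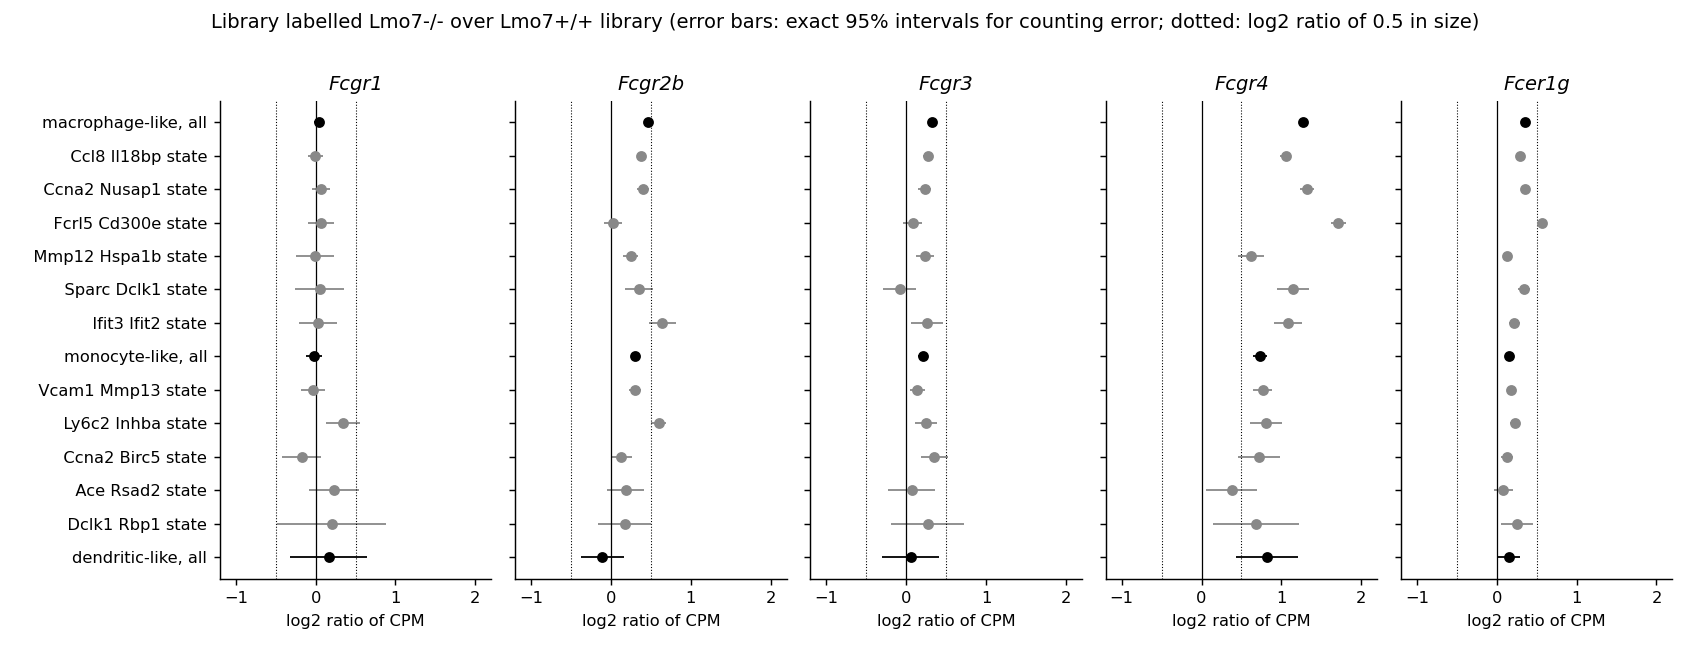
Log2 ratio of CPM, library labelled Lmo7-/- over Lmo7+/+ library (x axis), for each gene in classes (black) and states (grey, y axis), with exact 95% intervals for counting error and dotted lines at 0.5 in size. Fcgr4 lies between 0.62 and 1.71 in the macrophage-like states, and Fcgr1 stays between -0.01 and 0.07.

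In monocyte-like cells, Fcgr4 again stood apart, with a log2 ratio of 0.74 (0.65 to 0.82), beside 4.71% of 10767 genes past the fold in that direction. Fcgr2b differed by 0.30, Fcgr3 by 0.21, Fcer1g by 0.15 and Fcgr1 by -0.02. The class holds a state led by Vcam1 and by the macrophage markers Ms4a7 and Apoe, and a state led by the monocyte genes Ly6c2 and Plac8. Fcgr4 was at 327 and 556 CPM in the Vcam1 state and at 225 and 395 CPM in the Ly6c2 state, log2 ratios of 0.77 and 0.81, beside 5.87% and 7.81% of genes. In the Ly6c2 state Fcgr2b was also past the fold, at 1003 and 1516 CPM. A state with Ace and the interferon-induced Rsad2 among its leading genes had the highest Fcgr1 levels of all, 425 and 500 CPM, and an Fcgr4 log2 ratio of 0.38 (0.06 to 0.70).

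Dendritic-like cells were divided by state as well. The state led by Cd209a and Mgl2, genes of type 2 conventional dendritic cells, had 278 and 196 CPM of Fcgr2b, 161 and 138 CPM of Fcgr3 and 81.2 and 109 CPM of Fcgr4. The state led by Xcr1 and Clec9a, genes of cross-presenting dendritic cells, had 68.7 and 49.0 CPM of Fcgr2b from 20 and 11 counts, and 5 or fewer counts of Fcgr3 and of Fcgr4 in each library. A set of 28 cells led by Siglech, a gene of plasmacytoid dendritic cells, had 28 and 24 counts of Fcer1g, 707 and 1028 CPM, and 0 counts of Fcgr1, Fcgr3 and Fcgr4, which allows up to 3 counts each. A set of 26 cells in this class was led by macrophage markers, so the class as a whole is not compared between the libraries.

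Free RNA of macrophages gives UMIs in droplets of other cells, so levels outside macrophages were read against 10 abundant macrophage genes, such as C1qa, Lyz2 and Csf1r. In tumor-like cells these 10 genes had a median of 0.925% of their macrophage-like level in the Lmo7+/+ library and 0.744% in the other. Fcgr4 was at 0.955% and 0.773% and Fcer1g at 1.01% and 0.778%, close to those medians. Fcgr2b was higher, at 1.30% (1.19% to 1.42%) and 0.919%, with only 2 list genes above it in each library. The highest list gene, Cst3, was at 35.4% and 30.4%, and the third highest at 1.00% and 0.893%. All 5 genes in tumor-like cells are treated here as background, which was not tested. The tumor-like Fcgr4 levels of 3.83 and 7.47 CPM differ in the same direction as those of the macrophage-like cells.

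Fcer1g in NK-like cells was far above that background, at 59.9% (53.9% to 66.4%) and 43.0% (37.7% to 48.8%) of its macrophage-like level, where the list median was 2.46% and 1.86% and its highest gene, Cst3, was at 12.4% and 9.77%. Fcgr3, which NK cells use for antibody-dependent killing, gave 7 and 8 counts in 76 and 54 NK-like cells, 7.44% and 9.44% of the macrophage-like level. That is above the list median, with only 2 and 1 of the 10 list genes higher, Cst3 among them. The intervals, 2.99% to 15.3% and 4.08% to 18.6%, hold the second highest list gene, at 8.78% and 6.30%. Cst3 was high in tumor-like cells too, so it is a loose measure of free macrophage RNA. Whether Fcgr3 RNA in NK-like cells exceeds background was not tested, and its counts are few.

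T-like cells had Fcer1g at 8.90% and 5.24% of the macrophage-like level, above 8 of the 10 list genes. The value differed among their states. In the state led by Gzmf and Cd8a, cytotoxic T cell genes, it was 10.2% and 7.06%, and in the cycling state 7.61% and 3.86%. In the state led by Foxp3, the regulatory T cell factor, it was 2.12% and 0.22%, from 13 and 2 counts, below the list medians of 2.56% and 0.84%. A set of 26 and 18 cells clustered with T-like and NK-like cells was led by H2-Aa, Il1b and other myeloid genes, and had Fcer1g at 36.0% and 24.7% and Fcgr2b at 35.2% and 49.4%, beside list medians of 24.4% and 22.3%. Fcgr4 in T-like cells had 9 and 18 counts and was detected in 0.852% and 1.07% of thinned cells, no more than in tumor-like cells.

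**Figure D4:**
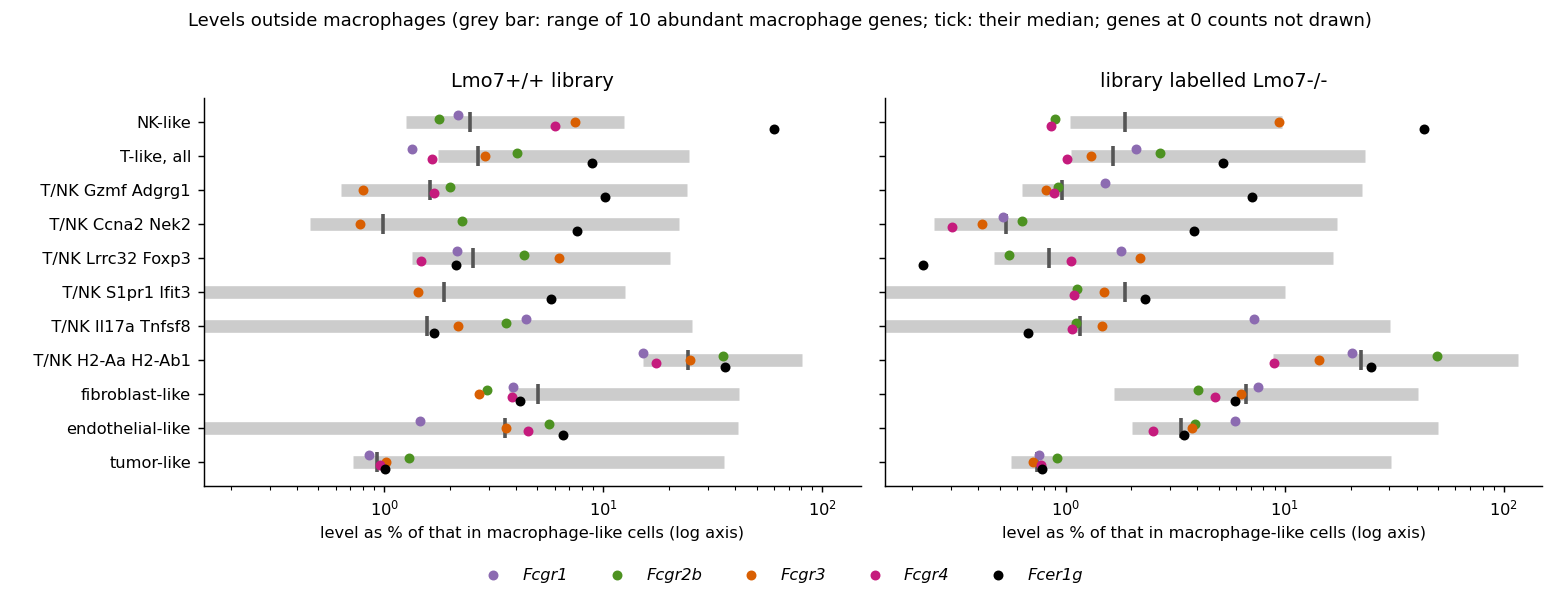
Level of each gene outside macrophages as a percentage of its macrophage-like level (x axis, log axis) by class or T and NK state (y axis), in each library, against the range (grey bar) and median (tick) of 10 abundant macrophage genes. Fcer1g in NK-like cells lies at 59.9% and 43.0%, to the right of every list gene, and in tumor-like cells all 5 genes lie near the tick.

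Genes whose levels followed each receptor most closely were found by Pearson correlation of log2(CPM + 10) over the 18 points made by 9 classes and 2 libraries. These points share libraries and depth, and the values are a description. Fcgr1 was most like Slc29a3 (0.96), Igsf6 and B430306N03Rik, Fcgr2b most like Cd68 (0.98), Clec4n and Trem1, Fcgr3 most like Cd300lf (0.98), Lst1 and Lair1, Fcgr4 most like C1qb (0.98), Lyz2 and C1qc, and Fcer1g most like Tyrobp (0.96), Zc3h12a and Arhgap17. Over the 22 points of 11 macrophage-like and monocyte-like states and 2 libraries, Fcgr4 and Fcer1g had a correlation of 0.88, and Fcgr2b and Fcgr3 of 0.73. Fcgr1 and Fcgr2b had 0.13.

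The genes that work with the receptors were described by lists, in macrophage-like cells. Beside every list, 4.89% of all genes were higher past the fold in these cells and 10.8% were lower. No list was tested against these shares. Of 16 genes of activating signaling downstream, none was past the fold in either direction, and their median log2 ratio was -0.01, beside -0.12 for all genes. The highest of them was Gab2, an adapter, at 0.25. Of 17 genes of the phagocytic actin and oxidase machinery none was past the fold, with a median of -0.05, from Elmo1 at -0.39 to Cyba, an oxidase subunit, at 0.38. Scaling by TMM adds 0.12 to every ratio, which brings the medians of both lists, and of the type I interferon list below, above 0.

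Of 5 measured receptors that pair with the gamma chain, 1 was past the fold and higher, Clec4d at 0.51, with a list median of 0.12. Of 4 measured adapters related to the gamma chain none was past the fold. Tyrobp, its closest functional relative, was at 1432 and 1819 CPM, a log2 ratio of 0.35 like that of Fcer1g. Of 19 inhibitory receptors and phosphatases, 3 were higher and 1 lower, beside 4.89% and 10.8% of all genes. The median of this list was 0.05, from Dok2 at -0.78 to Pecam1 at 1.16 and Clec12a at 0.59.

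Of 7 measured other genes of the Fc receptor family, 1 was higher and 3 were lower, beside 4.89% and 10.8% of all genes. Fcrl5 was at 9.24 and 18.1 CPM, a log2 ratio of 0.97, and Fcrls at 130 and 62.8 CPM, a log2 ratio of -1.05. Fcgrt, the neonatal receptor that recycles IgG, had a log2 ratio of 0.28. The ligands were represented by immunoglobulin transcripts, which macrophages do not make. In macrophage-like cells 4 of 4 measured were higher, with Igkc at 14.2 and 43.0 CPM and Ighg2b at 2.78 and 24.5 CPM. Monocyte-like cells went the other way: the 1 measured was lower past the fold, at -1.93, beside 7.2% of all genes. Cells with a UMI of these genes were 4.05% and 3.37% of macrophage-like cells, and without them the Fcgr4 log2 ratio was 1.26.

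Interferon gamma is known to raise Fcgr1 and Fcgr4 in macrophages. Of the 22 genes of the interferon gamma response, 14 were higher past the fold in macrophage-like cells and none was lower. Their median log2 ratio was 0.71, and 4.89% of all genes were higher past the fold and 10.8% lower. Nos2 had 1.97 and Gbp2b 1.54, and the least apart were Cxcl10 at 0.13 and Psmb8 at 0.15. Of 11 measured genes of the type I interferon response, none was higher and 1 was lower, with a median of -0.11. Of 11 measured genes of alternative activation, 3 were higher and 1 lower, among them Ccl24 at 2.18 and Arg1 at 1.99. In monocyte-like cells 10 of 21 interferon gamma genes were higher and none lower, beside 4.71% and 7.2% of all genes. Over the 22 state and library points, the Pearson correlation of the summed interferon gamma list was 0.66 with Fcgr1 and 0.51 with Fcgr4, and that of the summed type I interferon list was 0.80 with Fcgr1 and 0.16 with Fcgr4, all given as a description. By rank (Spearman), the interferon gamma list had 0.63 with Fcgr1 and 0.61 with Fcgr4, and the type I list 0.58 and 0.12. The Ifit3 state and the monocyte-like state with Rsad2 stood far above the others in the type I list.

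Values that moved with the libraries in macrophage-like cells were as follows. The 11 dissociation stress genes had a median log2 ratio of -0.36, with 3 lower past the fold and none higher. Of all genes, 10.8% were lower past the fold and 4.89% higher. The summed dendritic markers were at 115 and 173 CPM, and the summed tumor markers at 253 and 231 CPM. The 10 abundant macrophage genes had a median of 0.28, with 3 higher past the fold, among them Lyz2 at 0.71. The part of these in the receptor values was not tested.

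Genes around the receptor cluster on chromosome 1 were described as well. Of 27 other protein coding genes with at least 20 counts within 500 kb of the 4 clustered genes, 1 was higher past the fold, Slamf7 at 0.75, and 3 were lower, Fcrla, Fcrlb and Adamts4, each with fewer than 50 counts in all. Of all genes, 4.89% were higher past the fold and 10.8% lower, so these 27 were past it about as often as all genes. The median log2 ratio of the 27 was 0.03, beside -0.12 for all genes. Whether the Fcgr4 difference extends to the region was not tested. Fcgr2b and Fcgr3, on either side of Fcgr4, differed by 0.46 and 0.32 against its 1.27.

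**Figure D5:**
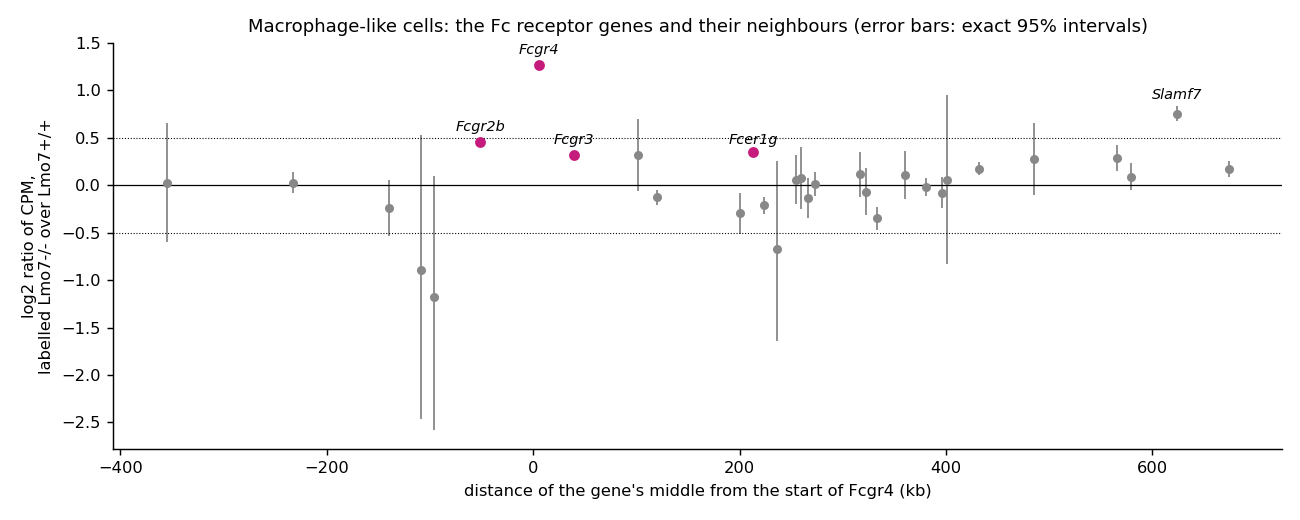
Log2 ratio of CPM in macrophage-like cells (y axis) for genes around the receptor cluster, by distance from the start of Fcgr4 in kb (x axis), with exact 95% intervals and dotted lines at 0.5 in size. Fcgr4 is at 1.27, above its neighbors Fcgr2b at 0.46 and Fcgr3 at 0.32, and Slamf7 is at 0.75.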

How the data were processed

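Tumor cells from 1 Lmo7+/+ library and 1 library labelled Lmo7-/- were measured on the 10x Chromium platform. The deposited counts are UMI counts per gene and droplet, made by the authors with Cell Ranger 2.1.1 on mm10 per the labels, while the file headers name software version 3.0.0. Here a droplet was dropped below 500 genes or 1000 UMIs, or above 15% mitochondrial UMIs. Counts were scaled to 10000 per cell, and 2000 variable genes without the 5 receptor genes gave 30 principal components for Louvain clustering at resolution 0.5 (igraph 0.11.9, scikit-learn 1.9.0). Clusters were named from marker lists, with limits on naming set after the data were seen, and 5 clusters stayed unnamed. Doublets were kept in the reported values and removed with Scrublet (scanpy 1.11.5) as an alternative.

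Counts were summed per class and library and given as CPM with exact Poisson 95% intervals, shares with Clopper-Pearson intervals, and ratios of CPM with intervals from the exact binomial split of the counts. No test was made, since each genotype is 1 library. A log2 ratio of 0.5 in size with at least 20 counts was called past the fold. Against counts of 0, ratios used a floor of 3 counts per library. TMM factors came from edgeR 4.0.16. The genes named are the 5 receptor genes, the 2 highest and 2 lowest of each list among genes with at least 100 counts in macrophage-like cells, the 3 genes most like each receptor gene and the leading genes of each cluster. Receptor genes and lists were chosen with earlier results of these data known. In simulated counts, 100% of 198 changed genes had the right sign and 93.3% of 2400 cells got the right class, but 51.7% of the 300 tumor-like cells were left unnamed. Whether these shares hold for the genes and cells of the 2 libraries was not tested.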

Additional observations from a re-analysis of the deposited data

Results flagged for a closer look

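Fcer1g differed between the libraries in opposite directions in 3 small classes, and the difference between classes was not tested. The log2 ratio, library labelled Lmo7-/- over Lmo7+/+ library, was 0.55 in mast or basophil-like cells (38 and 106 counts), 0.86 in fibroblast-like cells (98 and 152 counts) and -0.57 in endothelial-like cells (117 and 66 counts). In fibroblast-like cells Fcer1g was at 4.15% and 5.90% of its macrophage-like level, where the 10 abundant macrophage genes had medians of 5.01% and 6.69%. In endothelial-like cells it was at 6.54% and 3.47%, beside medians of 3.56% and 3.37%.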

How the results depend on the processing

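No paired analysis was possible because each genotype is 1 library, and no replicate could be left out for the same reason. Over 19 alternatives, the macrophage-like log2 ratio ran from 1.15 to 1.39 for Fcgr4, past the fold in all 19, from 0.34 to 0.58 for Fcgr2b, past it in 3, from 0.22 to 0.44 for Fcgr3, from 0.26 to 0.47 for Fcer1g and from -0.080 to 0.17 for Fcgr1. The activating to inhibitory ratio of the library labelled Lmo7-/- was the higher in 16 of 16, and its interval lay wholly above the other in 13 of the 15 that gave one, the exceptions being resolution 1.0 and the marker gates. The following values moved by more than their interval, and except for the scaling by TMM the cause was not tested. TMM gave 1.39 (Fcgr4), 0.58 (Fcgr2b), 0.47 (Fcer1g), 0.44 (Fcgr3) and 0.17 (Fcgr1), 2 genes past the fold, and 13.8% of all genes past it. Per-cell marker gates gave -0.080 for Fcgr1 and 0.52 for Fcgr2b, 2 genes past the fold, and a ratio of 1.91 in the Lmo7+/+ library. Resolution 1.0 gave 0.53 (Fcgr2b), 1.15 (Fcgr4) and 0.26 (Fcer1g), 2 genes past the fold, and ratios of 1.76 and 1.83. Resolution 0.2 gave 0.40, 1.18 and 0.32 for the same genes and ratios of 1.63 and 1.84. Removing doublets gave 0.40, 1.197 and 0.32, and 1.68 and 1.92, with 3842 and 4333 macrophage-like cells and no monocyte-like class to give levels for. The lenient filter gave 1.15 (Fcgr4), 0.30 (Fcer1g) and ratios of 1.62 and 1.78, and the strict filter 0.42 (Fcgr2b), 0.32 (Fcer1g) and 1.78 in the Lmo7+/+ library. Using 20 principal components gave 0.42 (Fcgr2b), 0.33 (Fcer1g) and ratios of 1.77 and 2.05, and receptor genes allowed in clustering gave 0.33 (Fcer1g). Cells with no UMI of other classes' markers gave 0.39 (Fcgr2b) and ratios of 1.64 and 1.92. The mean of per-cell CPM gave 0.38 (Fcer1g) and 1.78 in the Lmo7+/+ library, and a library size without the 10 most abundant genes 0.37 (Fcer1g).

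Further alternatives, among them the dendritic-like levels without cells led by macrophage markers, were chosen after seeing the data. Without the proliferating state Fcgr4 was at 1.195 and Fcer1g at 0.33, without the Ccl8 state Fcgr2b was at 0.37, Fcgr3 at 0.23 and the ratio of the library labelled Lmo7-/- at 2.22, and with the state mix held fixed Fcgr2b was at 0.34, Fcgr3 at 0.22 and Fcgr4 at 1.21. Without cells with an immunoglobulin UMI that ratio was 2.05. Among the alternatives not chosen in that way, Fcgr4 was detected in 66.3% and 83.1% of macrophage-like cells without thinning and in 30.01% and 53.9% at 1000 UMIs. At state resolution 0.8 Fcgr4 was past the fold in 8 of 9 states, 88.9%, with a lowest log2 ratio of 0.39. With a minimum of 100 counts, 10.2% of genes were past the fold. Depth limits the NK-like, mast or basophil-like and small dendritic-like groups, where most receptor counts were under 20.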

Other observations

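Some clusters that stayed without a class name also held receptor RNA. Cells led by Folr2, Cbr2 and Fcna, 81 and 61 in the 2 libraries, had the highest Fcgr2b level of any class or unnamed cluster, at 1136 CPM in the Lmo7+/+ library and 1445 CPM in the library labelled Lmo7-/-. By the class markers these cells were most like macrophages. They kept no name because their leading genes held more markers of another class. Their Fcgr4 was at 403 and 566 CPM, a log2 ratio of 0.49 (0.18 to 0.80), and their activating to inhibitory ratio was 1.22 and 1.06, with overlapping intervals. Cells with both T cell and macrophage genes, 89 and 125, had Fcgr4 at 227 and 550 CPM.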
